A study of Mus musculus with 12 samples.

Results

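The 6 genes described here encode the interleukin-6 and oncostatin M arm of cytokine signaling in A20 tumors: the ligands Il6 and Osm, the receptor chains Il6ra and Il6st, the transcription factor Stat3 and its feedback inhibitor Socs3. They were taken by symbol from the 770 genes of the nCounter mouse PanCancer Immune panel, which counts barcoded probes hybridized to RNA without amplification. All 6 were found among the 750 genes that are not reference genes, and none was removed by a filter. A20 is a B-cell lymphoma line from the Balb/c mouse, and its cells were implanted under the skin of female Balb/c mice. About 7 days later the tumors of 4 mice received PBS, those of 4 mice received 10 µg of GLA in 50 µl of a 2% stable emulsion (GLA-SE, also named G100), and those of 4 mice received the stable emulsion alone (SE). GLA is a synthetic agonist of the endotoxin receptor TLR4. Each tumor was injected 3 times, every other day, and was collected 2 h after the last injection. Mice and A20 cells were the same in every group, and all tumors came from 1 cell line, so the groups differ in the injected agent and the 4 tumors of a group in the host mouse. Summed over 7 B-cell genes, the normalized count was 12525 to 21376 in the 12 tumors, so genes of the labelled cell type were present in each one.

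IL-6 binds its receptor chain Il6ra, and the complex recruits the shared signal-transducing chain gp130, encoded by Il6st. Oncostatin M also signals through gp130, together with its own receptor chain. JAK kinases bound to gp130 phosphorylate STAT3, which enters the nucleus and induces target genes, among them Socs3, whose product binds gp130 and its kinases and limits further signaling. In inflamed tissue IL-6 comes mainly from myeloid and stromal cells after contact with microbial products such as TLR4 ligands. Oncostatin M is made by activated myeloid cells, among others.

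Socs3 and Il6 had the largest rises of the 6 genes after GLA-SE, and the sequence upstream of each start site is shown for that reason. RefSeq promoter sequences of GRCm38.p6 were at hand for 5 of the 6 genes, without Osm. For Il6 the 250 bases before the start site are given (chr5:30012864-30013113, plus strand), and for Socs3 the 30 bases around its 1 match to the STAT element (chr11:117969501-117969530, minus strand). Capitals mark matches, found by letters alone on both strands, to the kappa B consensus bound by NF-kB, to the AP-1 element TGANTCA and to the C/EBP element TTNNGCAA in Il6, and to the STAT element TTCNNNGAA in Socs3.
Il6 upstream: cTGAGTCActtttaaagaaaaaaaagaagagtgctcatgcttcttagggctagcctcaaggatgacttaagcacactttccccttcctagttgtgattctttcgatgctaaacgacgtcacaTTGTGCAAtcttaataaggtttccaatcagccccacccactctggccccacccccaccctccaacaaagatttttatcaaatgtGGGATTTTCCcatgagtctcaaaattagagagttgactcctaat
Socs3 STAT match: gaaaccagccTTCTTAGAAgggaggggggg
In Il6 the AP-1 match began at -249, the C/EBP match at -128 and the kappa B match at -44, counted from the start site. These did not overlap. In Socs3 the STAT match began at -154. The annotated Socs3 gene spans chr11:117966079-117970336, so the match lies before the start site used here but within that span. Of 32851 promoter windows of the same length, 7.02% held the STAT element, 7.25% the kappa B consensus, 6.75% the AP-1 element and 9.56% the C/EBP element. Il6, Il6ra, Il6st and Stat3 held no STAT match in their windows. A match is a run of letters and was not measured as a bound site.

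Each tumor gave 810260 to 1612415 counts in all. They were divided by a size factor from 16 of the 20 reference genes, the same for all comparisons, and the results are called normalized counts. The reference genes were lowest in SE replicate 4, at 927 counts against 1501 to 2806 in the other 11 tumors, and its counts were therefore scaled up most. The labels name no batch, and the counts were not searched for one beyond the replicate numbers. Since whole tumors were measured, more cells that express a gene and more RNA per cell cannot be told apart.

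Il6, the cytokine itself, was close to the lower end of the panel without GLA. Its normalized counts were 15.2, 13.1, 11.7 and 10.3 in PBS replicates 1 to 4, and 22.3, 49.9, 671 and 115 in the GLA-SE replicates. SE gave 8.66, 10.2, 33.6 and 86.7. Every GLA-SE tumor lay above every PBS tumor, and GLA-SE replicate 3 stood far above the other 3, whereas SE replicates 1 and 2 lay below all PBS tumors and SE replicates 3 and 4 above them. The deposited Il6 counts of the 4 PBS tumors and of SE replicates 1 and 2 were 10 to 16, under the threshold count of 20 that the study's methods name, so the size of the rise rests on a low baseline.

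Osm, the ligand made by activated myeloid cells, had normalized counts of 29.4, 18.7, 27.0 and 21.5 in the PBS tumors. They were 40.6, 70.8, 242 and 76.7 in the GLA-SE tumors and 23.3, 25.6, 83.5 and 131 in the SE tumors. GLA-SE and PBS did not overlap, and, as for Il6, GLA-SE replicate 3 was the highest GLA-SE tumor and SE replicates 3 and 4 were the highest SE tumors.

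Il6ra, the ligand-binding chain for IL-6, had normalized counts of 155, 131, 161 and 174 in the PBS tumors, 362, 371, 258 and 278 in the GLA-SE tumors and 111, 139, 309 and 752 in the SE tumors. Il6st, the shared chain gp130, had 342, 287, 251 and 317 in the PBS tumors, 686, 935, 683 and 587 in the GLA-SE tumors and 275, 225, 731 and 1801 in the SE tumors. For both chains GLA-SE lay above PBS without overlap, GLA-SE replicate 3 did not stand apart, and SE replicate 4 had the highest normalized count of all 12 tumors. Its deposited counts were not the highest. They were 373 for Il6ra, against 374 in GLA-SE replicate 1, and 893 for Il6st, against 899 in GLA-SE replicate 2.

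Stat3, the transcription factor, had normalized counts of 1281, 1098, 1188 and 1382 in the PBS tumors, 1815, 2131, 3498 and 2119 in the GLA-SE tumors and 1268, 1150, 1835 and 2877 in the SE tumors. Socs3, the feedback inhibitor, had 118, 65.4, 100 and 124 in the PBS tumors, 327, 483, 1901 and 660 in the GLA-SE tumors and 118, 73.6, 293 and 448 in the SE tumors. Both were highest in GLA-SE replicate 3. The lowest GLA-SE value of Socs3, 327, was above 3 of the 4 SE tumors, whereas for Stat3 SE replicates 3 and 4 reached into the GLA-SE range.

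**Figure D1:**
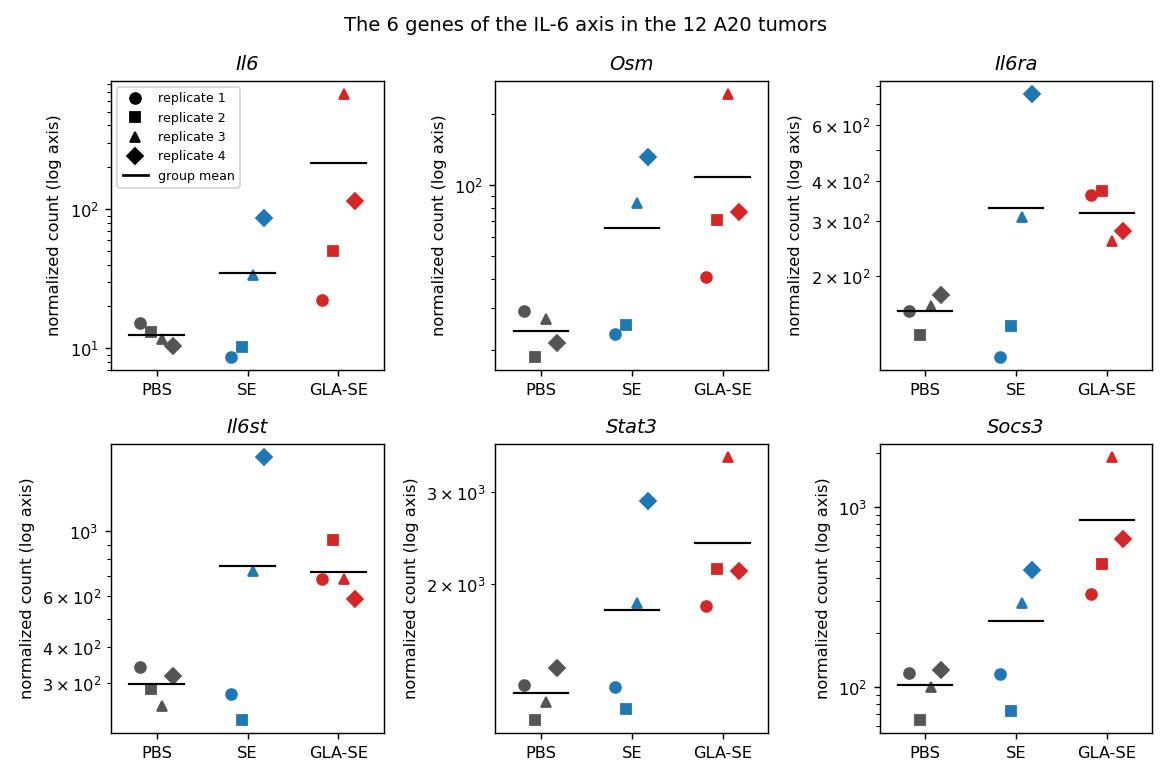
Normalized count (log axis) of each of the 6 genes in the 4 PBS, 4 SE and 4 GLA-SE tumors, with the replicate number as the shape of the point and the group mean as a line. In every panel the GLA-SE tumors lie above all PBS tumors, while SE replicates 1 and 2 lie near PBS and SE replicates 3 and 4 lie higher.

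All 6 genes were higher in GLA-SE than in PBS tumors. Il6 rose most, by 4.08 ± 1.04 on the log2 scale (standard error, n = 4 tumors per group), 17.0-fold with a 95% interval of 3.30 to 87.3 (edgeR, adjusted p = 0.00809). Socs3 rose 8.25-fold (log2 3.04 ± 0.55, adjusted p = 0.00186 in edgeR) and Osm 4.42-fold (log2 2.15 ± 0.54, adjusted p = 0.00775 in edgeR). The receptor chains and the transcription factor rose by smaller amounts, Il6st 2.41-fold (log2 1.27 ± 0.17, edgeR adjusted p = 0.000489), Il6ra 2.04-fold (log2 1.03 ± 0.18, edgeR adjusted p = 0.00155) and Stat3 1.93-fold (log2 0.95 ± 0.20, edgeR adjusted p = 0.00388). Mean normalized counts went from 12.6 ± 2.06 to 215 ± 307 for Il6 and from 102 ± 26.5 to 843 ± 719 for Socs3 (SD, n = 4), so the spread in the GLA-SE group was wide for both. For each gene the exact two-sided permutation test on the normalized counts gave p = 0.0286, the smallest that 70 assignments of 4 against 4 tumors allow. With panel median scaling this test gave p = 0.114 for Il6, exact as before.

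These 6 of 6 calls stand against a panel in which 68.4% of the 750 genes were called higher in the same comparison and 63.7% did not overlap in that direction. The median log2 fold change over the 750 genes was 0.90, and that of the 6 genes was 1.71. Relative to the panel median, Il6 was higher by 3.18, Socs3 by 2.14, Osm by 1.24, Il6st by 0.37, Il6ra by 0.13 and Stat3 by 0.05 on the log2 scale. By size of rise, Il6 ranked 5, Socs3 19 and Osm 58 among the 750 genes, whereas Il6st ranked 240, Il6ra 320 and Stat3 347. The ligands and Socs3 thus lay well above the middle of the panel and Il6ra and Stat3 lay at it.

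The number of genes called in each direction depended on the scaling. Reference-gene scaling gave 513 genes higher and 3 lower, TMM scaling gave 189 and 143 with a panel median of 0.10, and scaling to each tumor's median count over the panel gave 61 and 307 with a panel median of -0.40. Il6 and Socs3 were called higher under each of these, by 2.58 and 1.65 on the log2 scale with the panel median as the reference. Under that scaling Osm was 0.74 higher without passing the test, Il6st was at -0.0043 and Il6ra at -0.23, and Stat3 was called lower at -0.38. Il6ra, Il6st and Stat3 were thus called higher relative to the reference genes, and 0 of these 3 was called higher with the panel median as the reference.

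**Figure D2:**
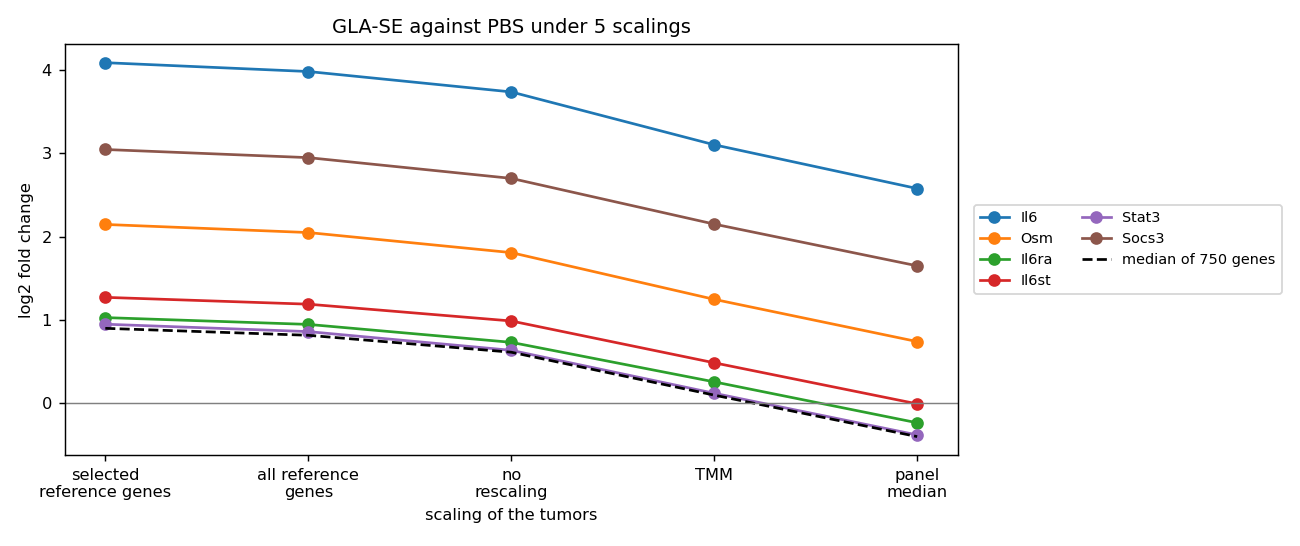
log2 fold change of the 6 genes (colored lines) and the median over 750 genes (dashed) in GLA-SE against PBS tumors, under 5 ways of scaling the tumors. Il6 and Socs3 stay above 0 throughout, while Il6ra, Il6st and Stat3 move with the panel median and fall below 0 with panel median scaling.

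GLA-SE replicate 3 carried much of the size of the larger rises. Without it the log2 fold change was 2.30 for Il6, 1.37 for Osm, 2.26 for Socs3 and 0.71 for Stat3, and all 6 genes were still called. The 7 neutrophil genes summed to 8561 normalized counts in this tumor, against 702 to 1993 in the other GLA-SE tumors and 163 to 205 in the PBS tumors. The 8 monocyte and macrophage genes summed to 83699 to 124890 in the GLA-SE tumors and 29061 to 37259 in the PBS tumors, again highest in replicate 3. The 10 genes of endothelium and fibroblasts summed to 18232 to 26768 and 4120 to 9299, the 8 T-cell genes to 2564 to 3620 and 908 to 2562, and the 5 NK-cell genes to 903 to 1021 and 254 to 633. Each was higher in GLA-SE without overlap, as were 63.7% of the 750 genes, and the T-cell ranges nearly touched. All marker sums used the reference-gene scaling, and other scalings were not tried for them. The 7 B-cell genes were lower, at 14607 to 17026 against 18175 to 21376. No marker was at 0 in any tumor, but the lowest count of the whole panel was 1. Of the 7 neutrophil genes, 5 had a mean under 20 normalized counts in the PBS tumors and 3 in the GLA-SE tumors. The part of these cell types in the rises was not tested.

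SE alone gave no call among the 6 genes. In SE against PBS tumors 0 of the 6 genes passed in edgeR, which called no gene of the panel (0% of 750 genes called higher, 8% higher without overlap). In edgeR 1 of the 6, Osm, had an unadjusted p under 0.05, as did 134 of the 750 genes. DESeq2 also called 0 of the 6, and gave Il6 no adjusted p when it used the reference size factors. Over the panel it called 47 genes higher and 6 lower of 615 with those factors, and 7 higher and 5 lower of 649 with its own. The log2 fold changes were 1.41 for Il6 (95% interval -0.27 to 3.08), 1.42 for Osm (0.05 to 2.80), 1.07 for Il6ra (-0.28 to 2.43), 1.34 for Il6st (-0.11 to 2.79), 0.53 for Stat3 (-0.14 to 1.19) and 1.19 for Socs3 (-0.13 to 2.50), with edgeR adjusted p of 0.256 to 0.274 and a panel median of 0.51. These intervals include differences as large as those of GLA-SE for Il6ra, Il6st, Osm and Stat3, so the 4 tumors do not bound the effect of the emulsion tightly.

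In normalized counts the SE group was split for all 6 genes. SE replicates 1 and 2 had 8.66 and 10.2 normalized counts of Il6 and 275 and 225 of Il6st, within or below the PBS range, whereas SE replicates 3 and 4 lay above every PBS tumor for each gene. The deposited counts of SE replicates 3 and 4 were also above PBS for each gene but Stat3. Deposited Stat3 counts were 1473 and 1426 in these tumors, within the 1175 to 1738 of the PBS tumors. Leaving out SE replicate 4, the tumor with the lowest reference genes, brought the log2 fold changes to 0.43 for Il6, 0.85 for Osm, 0.26 for Il6ra, 0.45 for Il6st, 0.20 for Stat3 and 0.66 for Socs3. In SE replicate 4 the genes of endothelium and fibroblasts summed to 120659, against 3530 to 28192 in the other SE tumors, and those of monocytes and macrophages to 106397, against 24292 to 72887. Its T-cell genes summed to 5317, the highest of the 12 tumors, against 765 to 1380 in the other SE tumors, its neutrophil genes to 1017, against 173 to 533, and its B-cell genes to 12525, the lowest of the 12 tumors. The part of these cells in the SE values was not tested.

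GLA-SE against SE, which sets the agonist in its emulsion beside the emulsion alone, gave no call for the 6 genes either (0 of 6 in edgeR, against 2.13% of the 750 genes called higher and 14.7% higher without overlap). Socs3 came closest, at 3.63-fold (log2 1.86 ± 0.73, 95% interval 0.18 to 3.54, unadjusted p = 0.034 and adjusted p = 0.223 in edgeR, exact permutation p = 0.0571). It was the 1 gene of the 6 with an unadjusted edgeR p under 0.05, which 139 of the 750 genes had. DESeq2 called Socs3 with either set of size factors (adjusted p = 0.038 with the reference genes and 0.013 with its own), and Il6 with its own (adjusted p = 0.03). DESeq2 called more of the panel than edgeR here, 111 genes higher and 8 lower of 630 with the reference genes and 54 higher and 26 lower of 673 with its own size factors. Il6 was 6.29-fold higher with an interval of 0.903 to 43.9 (edgeR adjusted p = 0.291). Osm was at 0.72 on the log2 scale (-1.02 to 2.46), Stat3 at 0.42 (-0.37 to 1.21), Il6ra at -0.04 (-1.40 to 1.31) and Il6st at -0.07 (-1.50 to 1.37). Without SE replicate 4 Socs3 was at 2.39 (edgeR adjusted p = 0.078) and Il6 at 3.64, without GLA-SE replicate 3 they were at 1.08 and 0.88, and with both tumors left out, a setting chosen after seeing the data, at 1.61 and 1.86, none of them called. The 3 comparisons share tumors, since each group enters 2 of them.

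**Figure D3:**
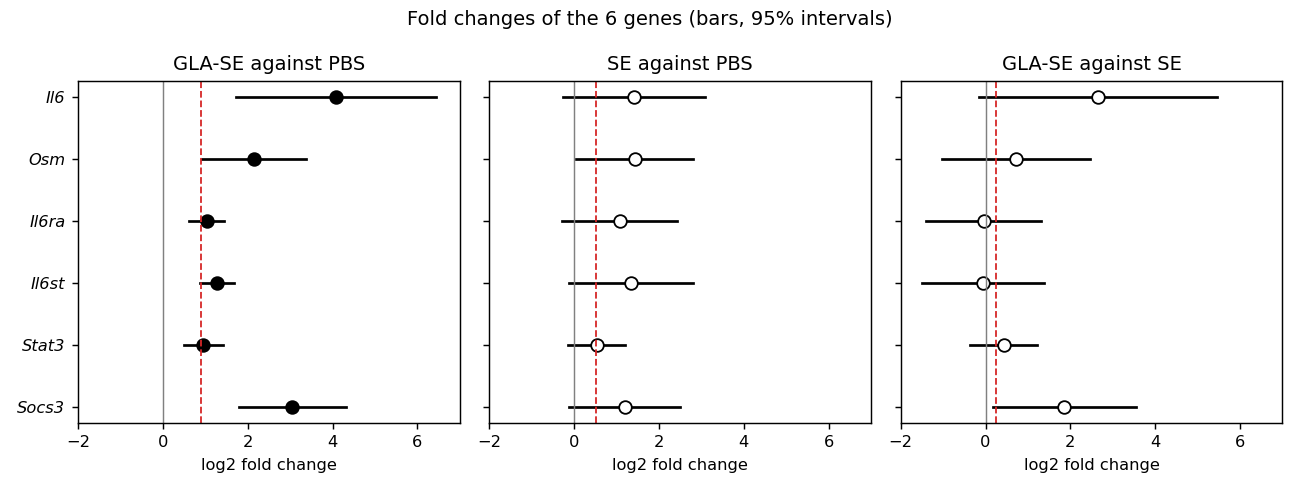
log2 fold change (point) and 95% interval (bar) of the 6 genes in the 3 comparisons, 4 tumors per group, with filled points for an adjusted p under 0.05 and the panel median as a dashed line. All 6 points are filled in GLA-SE against PBS, and 0 in the comparisons with SE.

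Ratios of 2 genes within a tumor do not depend on how the tumors are scaled. The log2 ratio of Socs3 to Stat3, the inhibitor against its inducer, was -2.47, -2.14, -0.88 and -1.68 in GLA-SE replicates 1 to 4. It was -3.42, -4.05, -3.56 and -3.47 in the PBS tumors and -3.42, -3.95, -2.64 and -2.68 in the SE tumors. All 4 GLA-SE tumors lay above all 8 others. The mean was 1.83 higher in GLA-SE than in PBS and 1.38 higher than in SE (exact permutation p = 0.0286 for each, adjusted p = 0.171 over 12 tests, so neither passed the correction), and 0.45 higher in SE than in PBS (exact permutation p = 0.2).

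The ratios between ligands and receptors overlapped between all groups. Il6ra to Il6st differed by -0.24 between GLA-SE and PBS (exact permutation p = 0.229), Il6 to Il6ra by 1.86 (p = 0.143, exact permutation) and Osm to Il6st by 0.56 (p = 0.457, exact permutation). Without GLA-SE replicate 3 the latter 2 differences were 0.85 and 0.04. The log2 ratio of Il6 to Il6ra ran from -3.97 in GLA-SE replicate 1, close to the lowest PBS tumor, to 1.37 in replicate 3.

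**Figure D4:**
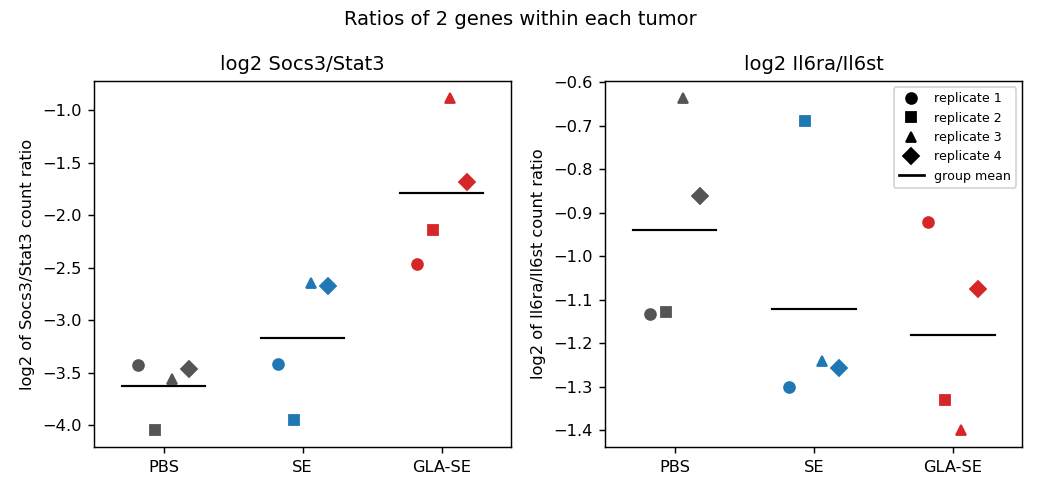
log2 ratio of the Socs3 to the Stat3 count and of the Il6ra to the Il6st count in each tumor, with group means as lines. For Socs3 to Stat3 the GLA-SE tumors, from -2.47 to -0.88, lie above the PBS and SE tumors, while for Il6ra to Il6st the 3 groups overlap.

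Of 36 other genes of the pathway on the panel, 23 were higher in GLA-SE than in PBS tumors and 0 lower (edgeR). This is a smaller share than the 68.4% of the panel called higher, and the median log2 fold change was 1.14 beside 0.90 for the panel. Of the 36, 18 were higher without overlap, as were 63.7% of the 750 genes. Lif, Hamp, Il10, Il22ra2 and Il23r were called although their groups overlapped. Among other gp130 ligands and receptors 3 of 5 rose: Lif, a gp130 ligand like oncostatin M, by 2.39, and Ebi3 and Il27, the chains of IL-27, by 1.47 and 1.25. Lif was uneven, with mean normalized counts of 26.3 ± 3.53 in PBS and 139 ± 205 in GLA-SE tumors (SD, n = 4). Il27 was close to the lower end of the panel, with mean normalized counts of 7.62 in PBS and 18.3 in GLA-SE tumors. Il11 was at 1.40 and did not pass. The 3 JAK kinases and Socs1, another feedback inhibitor, all rose, Jak2 by 1.44 and Socs1 by 1.56, and Jak1 by 0.80 and Tyk2 by 0.79, both below the panel median.

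The genes of the remaining lists were divided. With 68.4% of the panel called higher, the counts of the acute-phase genes and of the other cytokines and receptors lay near the panel share, and that of the STAT3 targets below it. Of 6 acute-phase genes 4 rose, Lcn2 (lipocalin-2, which withholds iron from bacteria) by 3.74, Lbp (which carries endotoxin to CD14) by 1.81, C3 (complement) by 1.48 and Hamp (hepcidin) by 1.04, while Saa1 and Crp were at 0.28 and 0.37 and did not pass. Hamp, Saa1 and Crp had low counts, with normalized means of 14.1, 21.0 and 16.8 in PBS and 29.1, 25.4 and 21.8 in GLA-SE tumors. Of 10 genes listed as STAT3 targets 4 rose, Fos by 1.51, Cebpb by 1.40, Il4ra by 1.31 and Hif1a by 1.26. The other 6 did not pass: Vegfa was at 0.51, Batf at 0.28, Bcl2l1 at 0.03, Myc at -0.08, Birc5 at -0.24 and Bcl6 at -0.43. The median of this list was 0.39, below the panel median. Of 11 genes listed as other STAT3-activating cytokines and receptors, 8 rose, with Csf3 (G-CSF) at 2.25, its receptor Csf3r at 2.23 and Il10 at 1.57 among them. The 8 also include Il22ra2, the decoy receptor of IL-22, at 1.80.

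In SE against PBS tumors 0 of the 36 genes passed in edgeR, and 7 had an unadjusted p under 0.05, as did 134 of the 750 genes. DESeq2 with reference size factors called 1 of the 36, beside 47 genes higher and 6 lower of 615. In GLA-SE against SE tumors 0 of the 36 passed in edgeR, and 5 had an unadjusted p under 0.05, as did 139 of the 750 genes. DESeq2 called 4 of the 36 with the reference size factors, beside 111 genes higher and 8 lower of 630. With its own it called 1, beside 54 and 26 of 673. Leaving out SE replicate 4 gave 5 edgeR calls, with 104 of the 750 genes called higher, and leaving out GLA-SE replicate 1 gave 1, with 17 of the 750. Socs1 was at 1.29 (edgeR adjusted p = 0.0609), and its groups did not overlap. The median log2 fold change of the 36 genes was 0.43 in SE against PBS, beside 1.14 in GLA-SE against PBS. Some SE estimates came near or above those of GLA-SE, such as Il22ra2 at 4.01, Lcn2 at 3.64, Lbp at 2.36, Hamp at 1.44 and Fos at 1.32. In GLA-SE against SE these genes were at -2.21, 0.10, -0.55, -0.40 and 0.19, so their rises were not shown to be particular to GLA-SE.

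**Figure D5:**
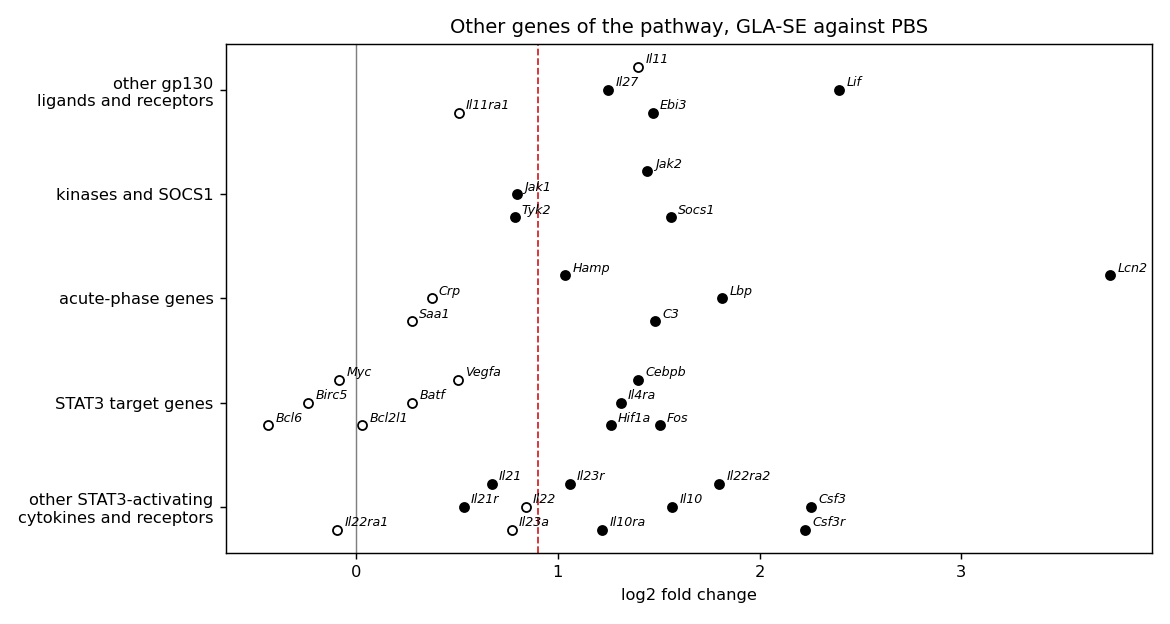
log2 fold change of 36 other genes of the pathway in GLA-SE against PBS tumors, in 5 lists, with filled points for an adjusted p under 0.05 and the panel median of 0.90 as a dashed line. Lcn2, at 3.74, lies farthest right, and the STAT3 targets fall into 4 filled points above the panel median and 6 open ones below it.

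Over the 12 tumors, the genes whose pattern lay nearest to each of the 6 were found among 698 genes by the mean absolute difference of centered log2 normalized counts. For Il6 they were Cd14, the endotoxin co-receptor, at 0.247 and the neutrophil chemokine Cxcl1 at 0.324, where the median gene was at 1.06. For Socs3 they were Arg2 at 0.218 and the inflammasome sensor Nlrp3 at 0.251 (median 0.856), and for Osm Prg2 at 0.247 and Cdkn1a at 0.263 (median 0.660). For Il6ra they were the scavenger receptor Colec12 at 0.159 and Cd84 at 0.169 (median 0.497), for Il6st Cmklr1 at 0.124 and App at 0.128 (median 0.527) and for Stat3 Atg7 at 0.0979 and Cd53 at 0.108 (median 0.408). All of these values share the tumors and their scaling.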

How the data were processed

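RNA of 12 A20 tumors was counted on the nCounter mouse PanCancer Immune panel. The authors deposited 1 table of counts for 770 genes. The study's methods name normalization in nSolver, but the values are whole numbers with unequal totals (810260 to 1612415) and were treated as raw counts. No tumor was left out, and 0 pairs of tumors held identical columns. Of 20 reference genes, a geNorm selection over all 12 tumors kept 16. The other 750 genes were compared in pairs of groups with edgeR 4.0.16 (R 4.3.3, quasi-likelihood test, no low-count filter, no covariate), Benjamini-Hochberg adjustment and a threshold of 0.05. Replicate tumors come from separate mice per the labels. Exact permutation tests, on normalized counts and on log2 ratios, were two-sided (scipy 1.17.1). Nearest patterns used log2(normalized count + 1) and genes with a group mean of at least 20. Low counts, such as those of Il6, and the spread between 4 tumors limit the precision. Fits were tested on simulated data. The genes, the pathway lists, the marker lists and the motifs were chosen with earlier results of these data known. The named genes are the 6 genes, 36 pathway genes (another is not reported here) and the 2 nearest genes of each. Alternatives were other scalings, a filter of 20 counts in at least 4 tumors, 1 fit of all 12 tumors, the replicate number as a block, DESeq2 1.42.0, limma 3.58.1 with pseudocounts of 1 and 10 or quantile normalization, and leaving out each tumor.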

Additional observations from a re-analysis of the deposited data

Results flagged for a closer look

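Of 18 groups of 4 tumors searched for a distant tumor, 1 held one. The rule marks about 1 in 20 groups by chance, but the groups are 6 genes in the same 12 tumors. Whether chance gave the distant tumor was therefore not tested. It was GLA-SE replicate 3 for Il6, at 671 normalized counts against 22.3 to 115 in the other GLA-SE tumors. This tumor was also the highest GLA-SE tumor for Osm, Stat3 and Socs3, without passing the rule. It had the highest neutrophil genes, at 8561 normalized counts, and their part in the Il6 value was not tested.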

How the results depend on the processing

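In GLA-SE against PBS tumors Il6 and Socs3 kept their direction and their call in the fits across all genes under all 13 alternatives and all 8 omissions of a tumor. The number of the 6 genes called in either direction was 3 with panel median scaling, Stat3 among them as lower, and 2 with quantile normalization. It was 4 with TMM scaling, with DESeq2's own size factors or with all 12 tumors in one fit, and 6 otherwise. The calls over the panel changed too. They were 61 higher and 307 lower with panel median scaling, 108 and 169 with quantile normalization and 189 and 143 with TMM scaling. DESeq2's own size factors gave 193 and 153 of 700, and all 12 tumors in one fit gave 255 and 0. With 1 fit of all 12 tumors the log2 fold changes barely moved, but Il6ra (adjusted p = 0.12) and Il6st (adjusted p = 0.083) lost their edgeR calls. Panel median scaling turned Il6ra (-0.23), Il6st (-0.0043) and Stat3 (-0.38), and their mean differences (-34.8, -1.42 and -431 counts), and quantile normalization turned Il6ra (-0.25). The exact permutation test on normalized counts, at p = 0.0286 as reported, gave 0.114 for Il6 and 0.286 for Osm with panel median scaling, and 0.0857 for Osm, 0.314 for Il6ra and 0.4 for Stat3 with TMM scaling, and for Socs3 in GLA-SE against SE it gave 0.0286 with TMM scaling or no rescaling. Pathway genes called in either direction, 23 as reported, were 14, 11 and 14 with panel median scaling, quantile normalization and all 12 tumors, beside the panel calls given above. With the filter of 20 counts they were 19, beside 496 genes higher and 4 lower of 670. In SE against PBS, Stat3 turned with panel median scaling (-0.052, and -66.1 counts), and DESeq2 with reference size factors called 1 pathway gene.

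In GLA-SE against SE tumors, 1 of the 6 genes was called with no rescaling or DESeq2 with reference size factors and 2 with DESeq2's own, which split the panel into 54 higher and 26 lower. Pathway genes called in either direction, 0 as reported, were 2 with no rescaling, all 12 tumors or GLA-SE replicate 3 and SE replicate 4 both left out, 4 with DESeq2 and reference size factors and 1 with its own. Over the panel, no rescaling called 88 genes higher and 1 lower, and all 12 tumors 77 and 2. With both tumors left out the panel had 52 and 0, and DESeq2 with reference size factors called 111 and 8 of 630. Il6ra and Il6st turned positive with no rescaling (0.42 and 0.41, and 78.25 and 172 counts), limma with a pseudocount of 1 (0.35 and 0.41) or 10 (0.33 and 0.40) and those 2 tumors left out (0.86 and 0.84). Stat3 turned negative with panel median scaling (-0.32, and -365 counts) and DESeq2's own size factors (-0.011). Leaving out 1 tumor gave -0.33 to 0.77 for Il6ra, -0.37 to 0.82 for Il6st, -0.056 to 1.29 for Osm, -0.15 to 0.085 for the log2 ratio of Il6ra to Il6st, -0.19 to 0.66 for that of Osm to Il6st, and 0 to 5 pathway genes called. The cause of these changes was not tested. The Socs3 to Stat3 difference stayed at 1.53 to 2.06 against PBS and 1.08 to 1.605 against SE, where 3 against 4 tumors allow no p below 0.0571.

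Replicate numbers did not pair the tumors (correlations of deviations -0.25 to 0.18), and 4, 2 and 2 of the 8 tumors correlated best with their own number in GLA-SE against PBS, SE against PBS and GLA-SE against SE. With the replicate block 6, 0 and 0 of the 6 genes were called, Il6ra and Il6st turned to 0.38 and 0.44 in GLA-SE against SE, and the panel had 437 genes higher and 2 lower in GLA-SE against PBS. With 4 tumors per group and deposited Il6 counts of 10 to 16 at baseline, small differences in Il6 were not detectable.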
